A study of Mus musculus with 24 samples.

Results

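Transcripts tied to regulatory T cells and to interleukin-10 (IL-10) were followed in the terminal ileum, the last stretch of the small intestine, of mice that had received a macrolide antibiotic early in life. The genes were every row of the deposited table named Foxp3, Ikzf2, Ikzf4, Il2ra, Ctla4, Il10, Il10ra, Ebi3, Entpd1 or Folr4. All 10 names were present, among 547 genes in all. They were read on the NanoString nCounter mouse immunology panel, which counts hybridized barcoded probes molecule by molecule, without amplification or sequencing. The 24 C57BL/6 mice were sampled at week 7 of life and comprised 7 Control mice, 7 PAT1 mice and 10 PAT3 mice. PAT stands for pulsed antibiotic treatment with the macrolide tylosin. PAT1 mice received 1 course as nursing pups through the milk of the treated dam, PAT3 mice received that course and 2 later courses in drinking water, and Control mice received non-acidified water. Control and PAT1 each held 4 males and 3 females, and PAT3 held 4 males and 6 females. Whole litters were assigned to a treatment, so that litter, cage and treatment cannot be told apart here.

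Regulatory T cells are CD4 T cells that restrain other lymphocytes, and they are abundant in the intestinal lamina propria, where they help to keep responses to food and commensal bacteria in check. Foxp3 is the transcription factor that defines the lineage, and Ikzf2 (Helios) and Ikzf4 (Eos) are Ikaros family zinc finger proteins, of which Eos acts as a corepressor with Foxp3. Surface molecules of these cells include the high-affinity IL-2 receptor chain CD25 (Il2ra), the inhibitory receptor CTLA-4 (Ctla4), which removes CD80 and CD86 from antigen-presenting cells, and the ectonucleotidase CD39 (Entpd1), which degrades extracellular ATP. Folr4, now named Izumo1r, encodes folate receptor 4, a surface protein of regulatory T cells. IL-10 is an anti-inflammatory cytokine made by regulatory T cells and by macrophages, and it signals through a receptor whose ligand-binding chain is Il10ra. Ebi3 is the subunit shared by IL-27 and IL-35. Several of these genes are also transcribed outside regulatory T cells: Il10ra and Entpd1 in myeloid cells, Entpd1 in endothelium, and Ctla4 and Il2ra in activated conventional T cells.

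Values are log2 normalized counts, that is, the log2 of the probe count divided by a size factor for the mouse. A difference of 1 on this scale is a 2-fold difference. Counts recovered from the table summed to between 171671 and 782392 per mouse, and the shallowest mice were PAT1 replicate 1 and PAT3 replicate 7. Because probes differ in efficiency, levels were compared between groups, and between genes only as a rough guide to low counts. A gene was termed called where limma gave a Benjamini-Hochberg adjusted p under 0.05 over all 547 genes. The defining markers of T cells were measured in every mouse, with Cd3d and Cd3e at or above 5.30 on the log2 scale. The mean of Cd3d, Cd3e, Cd247 and Cd4, used below as a T cell reference, stood at 6.81 ± 0.08 (SD, n = 7) for Control mice, 6.32 ± 0.32 (n = 7) for PAT1 and 5.83 ± 0.30 (n = 10) for PAT3. This was a fall by 0.49 in PAT1 (adjusted p = 0.00524) and by 0.97 in PAT3 (adjusted p = 0.000309), by two-sided exact permutation tests adjusted over 18 tests of marker lists. Among the 4 genes of the reference, limma called 1 lower in PAT1 and 4 in PAT3. The PAT1 call was Cd3e (−0.90, adjusted p = 0.000355). Cd247 (−0.43, adjusted p = 0.198), Cd3d (−0.40, adjusted p = 0.261) and Cd4 (−0.22, adjusted p = 0.393) were not called in PAT1. In tissue RNA of this kind, fewer cells of a type and less RNA per cell cannot be told apart.

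Across the 3 groups, the moderated F-test called Ctla4 (adjusted p = 0.000160), Ikzf4 (0.0135) and Ikzf2 (0.0350), that is, 3 of the 10 genes, where 34.6% of all genes were called. Ctla4 was the gene that fell in both treated groups. Ikzf2 fell after a single course and Ikzf4 rose after 3 courses, each relative to Control. In PAT1 against Control, 2 of the 10 were called, both lower, against 18.5% of all genes in either direction, 7.31% higher and 11.2% lower. In PAT3 against Control, 1 was called higher and 1 lower, against 31.8% of all genes, 13.9% higher and 17.9% lower. Both comparisons use the same Control mice. Between PAT3 and PAT1 none of the 10 was called by limma, against 4.2% of all genes, although Ikzf4, Ebi3 and Entpd1 had unadjusted p-values of 0.00449, 0.0239 and 0.0275, and voom called 1, Ikzf4. The median log2 fold change over the 10 genes was 0.00 in PAT1 (all genes, 0.01) and −0.15 in PAT3 (all genes, 0.03).

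**Figure D1:**
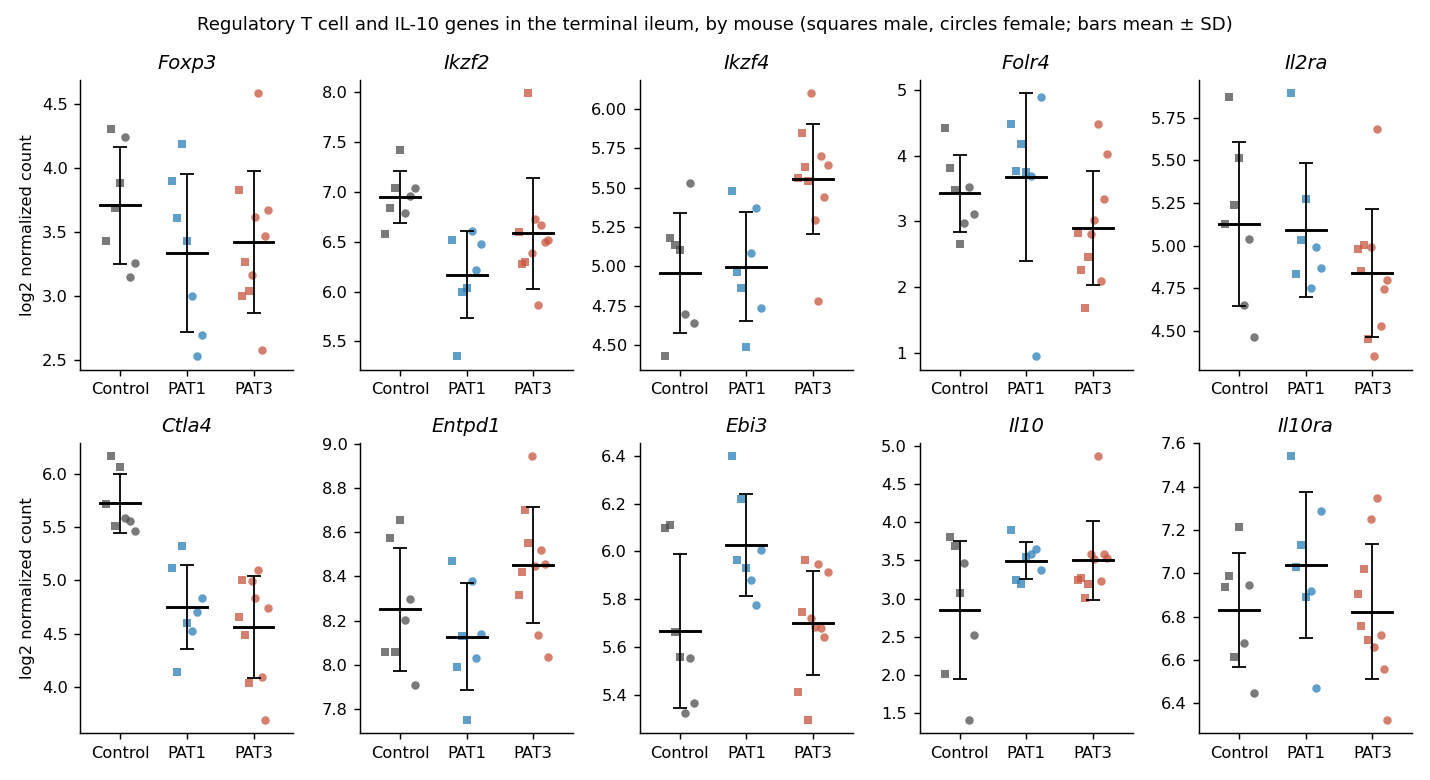
Log2 normalized count (vertical axis, a separate scale in each panel) of the 10 genes in each of 24 mice, with squares for males, circles for females and bars for the group mean ± SD. Ctla4 separates all Control mice from all treated mice, while the groups overlap in every other panel.

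Ctla4 was lower in every treated mouse than in every Control mouse. The 7 Control values ran from 5.46 to 6.16 with a median of 5.58. In PAT1 they ran from 4.14 to 5.32 (median 4.70), and in PAT3 from 3.69 to 5.10 (median 4.70). The lowest Control mouse thus lay above the highest mouse of either treated group, whereas PAT1 and PAT3 overlapped. Relative to Control, Ctla4 fell by 0.97 (SE 0.21, adjusted p = 0.00203, lower in 7 of 7 mice) in PAT1, a 1.96-fold decrease. In PAT3 it fell by 1.16 (SE 0.20, adjusted p = 5.46e-05, lower in 10 of 10 mice), a 2.23-fold decrease. The difference between PAT3 and PAT1 was −0.18 (95% confidence interval −0.59 to 0.22, adjusted p = 0.558). Of all 547 genes, 6.22% did not overlap between PAT1 and Control and 9.32% did not overlap between PAT3 and Control; Ctla4 was the 1 of the 10 genes to do so in each case. The counts behind these values were modest, with a median of 53 in Control, 23 in PAT1 and 25.5 in PAT3, for which counting error alone is 13.7%, 20.9% and 19.8%.

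The T cell reference was lower in the same groups. Within groups, Ctla4 and the reference were not related past the threshold (r = 0.34, adjusted p = 0.287, and rho = 0.30, adjusted p = 0.398, n = 24, permutation test). Expressed relative to that reference, Ctla4 differed from Control by −0.49 in PAT1 (95% confidence interval −0.94 to −0.03, adjusted p = 0.0806, 6 of 7 mice lower) and by −0.18 in PAT3 (−0.60 to 0.24, adjusted p = 0.421, 8 of 10 lower), neither of which passed the threshold. With the reference as a covariate the differences were −0.72 (adjusted p = 0.0540) and −0.65 (adjusted p = 0.375), in a fit that called 95 of all 547 genes in PAT1 and 7 in PAT3, against 101 and 174 without the covariate. The direction was the same within each sex. Males alone passed the threshold in both groups, whereas in females alone the differences were −0.85 in PAT1 (adjusted p = 0.182) and −0.96 in PAT3 (adjusted p = 0.0531).

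Because Ctla4 was the gene that separated the groups, its promoter sequence is given here, followed by promoters of Foxp3 and Il2ra, 2 genes of the same cells that were not called. RefSeq windows of assembly GRCm38.p6 were found for 6 of the 10 genes. Each line shows the 250 bases before a transcription start, 5′ to 3′ on the plus strand, with matches to GGAAAA, the core of NFAT sites, or to its reverse complement in capitals. Ctla4 lies at chr1:60908775-60909024, Foxp3 at chrX:7579426-7579675 (the first of 2 annotated starts) and Il2ra at chr2:11642542-11642791.
Ctla4: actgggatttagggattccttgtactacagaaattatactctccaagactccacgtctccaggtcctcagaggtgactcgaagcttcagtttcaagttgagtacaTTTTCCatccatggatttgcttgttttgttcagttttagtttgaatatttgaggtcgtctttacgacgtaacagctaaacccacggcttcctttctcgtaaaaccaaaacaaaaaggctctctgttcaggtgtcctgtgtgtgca
Foxp3: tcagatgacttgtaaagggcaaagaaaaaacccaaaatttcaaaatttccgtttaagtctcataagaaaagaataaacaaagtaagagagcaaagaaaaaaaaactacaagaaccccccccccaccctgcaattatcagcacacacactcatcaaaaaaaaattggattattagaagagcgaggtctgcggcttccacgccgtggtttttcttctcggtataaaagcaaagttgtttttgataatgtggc
Il2ra: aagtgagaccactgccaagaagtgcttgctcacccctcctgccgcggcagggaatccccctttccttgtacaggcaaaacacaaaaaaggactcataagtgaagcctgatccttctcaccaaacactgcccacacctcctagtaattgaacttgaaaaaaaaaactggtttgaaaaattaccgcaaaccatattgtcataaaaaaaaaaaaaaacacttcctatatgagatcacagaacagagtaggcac
The Ctla4 window held 1 match, on the reverse strand, and these windows of Foxp3 and Il2ra held none. The same letters occurred on either strand in 20.4% of 32851 windows of this length, so a match is common. The forkhead motif GTAAACA (both strands, in 3.17% of windows) was in none of the 8 windows found for these genes. The STAT motif TTCNNNGAA (7.02% of windows) was in the window of the second Foxp3 start, which also held 1 match to GGAAAA, and the Ikaros core TGGGAA (21.6%) was in the first of 2 Entpd1 windows. The second Entpd1 window held 1 match to GGAAAA, and Entpd1 was not called either. No window was found for Ikzf2 or Ikzf4, so motifs of called and uncalled genes cannot be compared here. The motifs were searched separately, and matches to different motifs may overlap.

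Ikzf2, which encodes Helios, was lower in PAT1. Control mice ran from 6.58 to 7.42 (median 6.96), PAT1 mice from 5.35 to 6.61 (median 6.21) and PAT3 mice from 5.86 to 7.99 (median 6.51). The highest PAT1 mouse reached just past the lowest Control mouse, and 1 PAT3 mouse stood above all Control mice. Ikzf2 fell by 0.78 in PAT1 (SE 0.24, adjusted p = 0.0187, 7 of 7 mice below the Control mean), which is 1.72-fold. Without PAT1 replicate 2, whose value was the lowest, the fall was 0.64 and the adjusted p 0.0523, and re-centring each mouse on its median gene gave 0.0666. In PAT3 the difference was −0.37 (95% confidence interval −0.81 to 0.08, adjusted p = 0.200), with 9 of 10 mice below the Control mean. Without PAT3 replicate 4, the mouse at 7.99, PAT3 passed the threshold (adjusted p = 0.0203). Median counts were 140, 73 and 98 in Control, PAT1 and PAT3. Relative to the T cell reference, the difference in PAT1 was −0.29 (adjusted p = 0.436).

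Ikzf4, which encodes Eos, was higher in PAT3. Control values ran from 4.43 to 5.53 (median 5.11), PAT1 values from 4.49 to 5.48 (median 4.97) and PAT3 values from 4.78 to 6.10 (median 5.60). All PAT1 mice lay within the Control range, while the median PAT3 mouse lay above every mouse of both other groups. Ikzf4 rose by 0.60 in PAT3 (SE 0.18, adjusted p = 0.0119, higher in 9 of 10 mice), or 1.51-fold. In PAT1 the difference was 0.04 (95% confidence interval −0.36 to 0.44, adjusted p = 0.929). PAT3 exceeded PAT1 by 0.56 (SE 0.18, adjusted p = 0.0576), short of the threshold, and the 1 PAT3 mouse below the PAT1 mean was replicate 7, the second shallowest library. Leaving out PAT3 replicate 7, PAT1 replicate 5 or PAT1 replicate 6 brought that adjusted p to 0.0146, 0.0491 and 0.0268. Medians of 41, 25 and 55.5 counts lay behind these values. Relative to the T cell reference, Ikzf4 was higher in PAT3 by 1.57 (SE 0.24, adjusted p = 4.16e-06), and with that reference as a covariate the PAT3 difference was 0.37 (adjusted p = 0.610).

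The lineage factor Foxp3 was measured at counts so low that its level is hardly defined. Control mice had a median of 15 counts, PAT1 mice 9 and PAT3 mice 11.5, with 6 to 24 counts in any mouse. Log2 values ran from 3.15 to 4.31 in Control, from 2.53 to 4.19 in PAT1 and from 2.58 to 4.58 in PAT3, and the groups overlapped over most of their ranges. The differences from Control were −0.37 in PAT1 (95% confidence interval −0.95 to 0.20, adjusted p = 0.405) and −0.29 in PAT3 (−0.82 to 0.25, adjusted p = 0.418).

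Folr4 and Il10 lay in the same low range. Folr4 had a median of 10 counts over the 24 mice, from 2 to 46. Its log2 values averaged 3.43 ± 0.58 (n = 7) for Control, 3.67 ± 1.28 (n = 7) for PAT1 and 2.90 ± 0.86 (n = 10) for PAT3, with differences from Control of 0.25 (95% confidence interval −0.72 to 1.21, adjusted p = 0.769) and −0.53 (−1.42 to 0.36, adjusted p = 0.366). In males alone limma called Folr4 lower in PAT3 than in Control (adjusted p = 0.0203) and than in PAT1 (adjusted p = 0.00662). Without PAT1 replicate 6, at 2 counts, it was also called lower in PAT3 than in PAT1 (adjusted p = 0.0205). Il10 had a median of 12 counts in each group. Control mice ran from 3 to 17 counts and from 1.41 to 3.81 on the log2 scale, PAT1 mice from 3.19 to 3.90 and PAT3 mice up to 4.86. Treated mice were thus bunched within the upper part of the Control range, apart from 2 that exceeded it, PAT1 replicate 1 and PAT3 replicate 7, which were the shallowest libraries of all. Il10 was above the Control mean in 7 of 7 PAT1 mice (difference 0.64, SE 0.31, adjusted p = 0.162) and in 10 of 10 PAT3 mice (0.65, SE 0.28, adjusted p = 0.0801), and neither was called. Leaving out Control replicate 2 or 3 brought the PAT3 adjusted p to 0.0344 or 0.0404, so that 1 Control mouse decided the call, and re-centring gave 0.0224.

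To place these counts, 8 genes known mainly for other organs were read from the same table, a list written after the data were seen. They were the complement genes C8a, C8b and C9, the lectin Mbl2 and the iron hormone Hamp, all liver products, the lung chemokine Cxcl15, and the thymic genes Psmb11 and Aire. Their median counts over the 24 mice ran from 5 to 11, and single values from 1 to 28. The list was not free of calls: Mbl2 differed from Control by −1.40 in PAT1 (adjusted p = 0.0125) and C9 by 1.16 in PAT3 (adjusted p = 0.00154). The median of Foxp3 (10), Folr4 (10) and Il10 (12) lay in or 1 count above that range, and 10.4%, 10.4% and 13.2% of all genes had a lower median. Ctla4, at a median of 30 counts, lay above it, although 12 of 17 treated mice and 0 of 7 Control mice had Ctla4 counts of 28 or fewer. That ceiling was reached by Hamp alone, in Control replicates 5 and 6, and no other value of the list exceeded 20. The counts were not scaled for the depth of each mouse. Whether background had been subtracted from the counts was not given in the sources used here. At this level, expression of a gene and background of the assay cannot be told apart in the table.

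**Figure D2:**
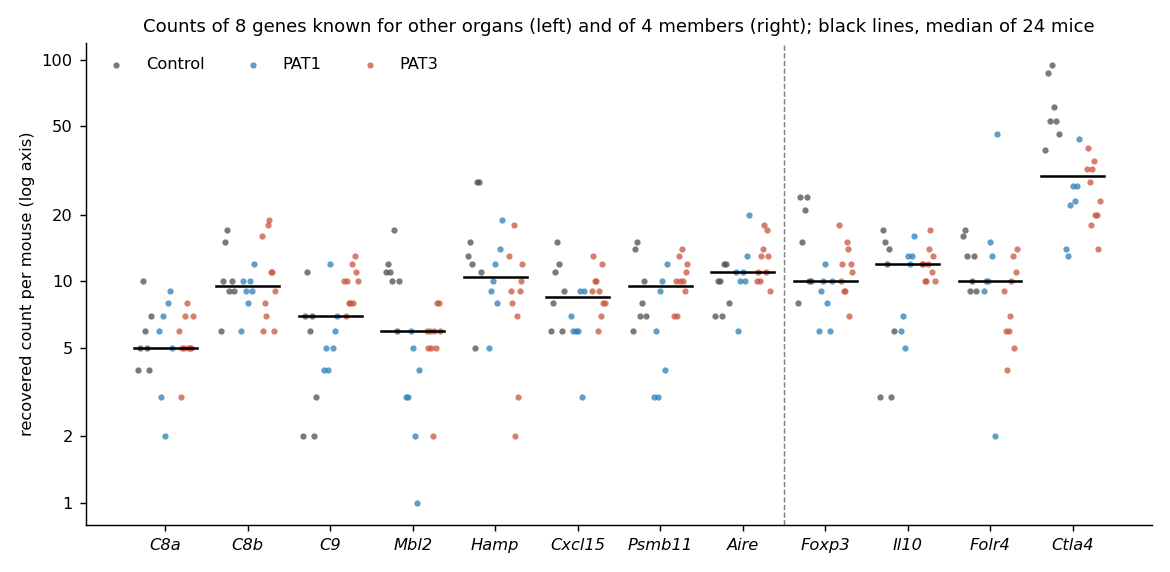
Recovered probe counts (log axis) in each of 24 mice, coloured by group, for 8 genes known for other organs to the left of the dashed line and for Foxp3, Il10, Folr4 and Ctla4 to its right, with black lines at the median over all mice. The medians of Foxp3, Il10 and Folr4 lie near those of the genes of other organs, and the median of Ctla4 lies above them, with 12 of 17 treated mice at or below 28 counts, a value that on the left only Hamp reached.

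The receptor and enzyme genes were measured at higher counts and differed little. Il2ra (CD25) averaged 5.13 ± 0.48 for Control (SD, n = 7), 5.09 ± 0.39 for PAT1 (n = 7) and 4.84 ± 0.38 for PAT3 (n = 10), with adjusted p-values of 0.943 and 0.281 against Control and an interval for PAT3 of −0.70 to 0.12. Il10ra was 6.83 ± 0.26, 7.04 ± 0.34 and 6.82 ± 0.31, and the differences from Control were 0.21 (95% confidence interval −0.14 to 0.56) and −0.01 (−0.33 to 0.32). Entpd1 (CD39), at a median of 365 counts the most deeply counted of the 10, was 8.25 ± 0.28, 8.13 ± 0.24 and 8.45 ± 0.26, with differences of −0.12 (−0.43 to 0.19) and 0.20 (−0.08 to 0.49). Under re-centring the difference of Entpd1 in PAT3 passed the threshold (adjusted p = 0.0260). These intervals leave no room for a 2-fold change of Il10ra or Entpd1 in either group at this depth.

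Ebi3, the shared IL-27 and IL-35 subunit, was higher in all PAT1 mice than the Control mean without being called. Its values ran from 5.33 to 6.11 (median 5.56) in Control, from 5.78 to 6.40 (median 5.97) in PAT1 and from 5.30 to 5.97 (median 5.70) in PAT3. Control overlapped PAT1 through 2 males at 6.10 and 6.11, both above the PAT1 median. The difference in PAT1 was 0.36 (SE 0.15, unadjusted p = 0.0221, adjusted p = 0.0950), and in PAT3 it was 0.03 (95% confidence interval −0.25 to 0.31). Leaving out either of those Control males, replicates 1 and 2, brought the PAT1 adjusted p to 0.0418 or 0.0452, and re-centring to 0.0233.

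The 10 genes were also measured against the T cell reference. In PAT1, 3 were called higher (Ebi3 by 0.84, Il10 by 1.13 and Il10ra by 0.69) and none lower, where 35.8% of all genes were called higher. In PAT3, 7 were called higher, where 76.2% of all genes were, so that the share is close to the background. Foxp3 was among them, higher by 0.69 relative to the reference (SE 0.25, adjusted p = 0.0134, 10 of 10 mice), and the others were Ikzf4, Il2ra, Il10, Il10ra, Ebi3 and Entpd1. On the deposited scale Foxp3 was not higher in PAT3 (−0.29, adjusted p = 0.418), at low counts, while the reference fell by 0.97. The reference genes fell unevenly in PAT3: Cd3e by 1.38, Cd3d by 1.27, Cd247 by 0.84 and Cd4 by 0.39. In PAT3 against PAT1, Ikzf2, Ikzf4 and Entpd1 were called higher by 0.90, 1.04 and 0.81, where 36.4% of all genes were. The median relative difference over the 10 genes was 0.49 in PAT1 (all genes, 0.50) and 0.83 in PAT3 (all genes, 1.01).

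**Figure D3:**
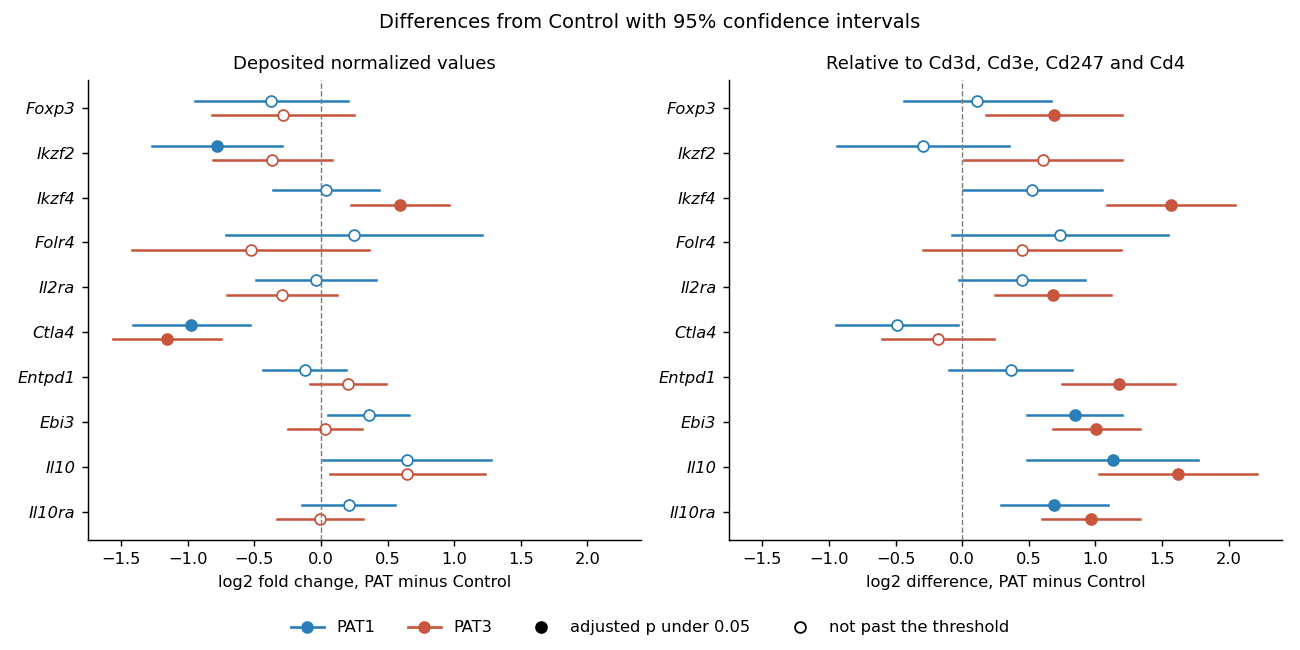
Difference of PAT1 (blue) and PAT3 (red) from Control for the 10 genes on the deposited scale (left) and after subtraction of the mean of Cd3d, Cd3e, Cd247 and Cd4 (right), as log2 with 95% confidence intervals and filled points for adjusted p under 0.05. On the left Ctla4 is lower in both groups, and on the right 3 genes in PAT1 and 7 in PAT3 are higher.

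Males and females were compared in the same mice. None of the 10 genes was called for sex by limma, where 0.366% of all genes were, and none had an unadjusted p under 0.05; the nearest was Il2ra, lower in females by 0.31 (unadjusted p = 0.0600). None was called for a treatment effect that differed between the sexes, where 0.183% of all genes were. At an unadjusted p under 0.05, 1 of the 10 passed that F-test, Foxp3 (p = 0.0388, adjusted p = 0.247). On the log2 scale, Foxp3 in the 3 PAT1 females lay below the 4 PAT1 males without overlap, at the low counts described above. The recovered Foxp3 counts did overlap, at 8, 6 and 10 in these females and 6, 9, 10 and 12 in these males. Size factors of PAT1 replicates 1, 2 and 3, all males, were 0.403, 0.736 and 0.550, smaller than in every other PAT1 mouse. The part of depth in this separation was not tested.

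The genes were related to cell type marker lists to different degrees. After subtraction of group means, each of the 10 was correlated with 5 marker lists over the 24 mice, 50 relations in all, with p-values from 100000 two-sided permutations within groups. Il10ra was inversely related to the mature enterocyte list (Abcb1a, Dpp4, Ccl25, Ceacam1 and Btnl1), with r = −0.85 (adjusted p = 0.000500) and rho = −0.92 (adjusted p = 0.000500), and r = −0.83 without the 2 most extreme mice. The unadjusted p of 1e-05 was the smallest these permutations can give. Its relation to the myeloid list was positive (r = 0.76, adjusted p = 0.000750, and rho = 0.71, adjusted p = 0.00725) and gave r = 0.68 without 2 mice. Il2ra and Entpd1 showed the same pair of relations, with r of −0.69 and −0.66 to the enterocyte list and 0.69 and 0.66 to the myeloid list (each adjusted p = 0.00907). Ctla4 correlated with the myeloid list (r = 0.61, adjusted p = 0.00907, and rho = 0.55, adjusted p = 0.0381), Ebi3 (r = 0.50, adjusted p = 0.0293) and Folr4 (r = 0.62, adjusted p = 0.0155, and rho = 0.63, adjusted p = 0.0216) with the T cell reference, and Ikzf4 inversely with the B cell and follicle list (r = −0.52, adjusted p = 0.0388, and rho = −0.47, adjusted p = 0.111). Foxp3 passed the threshold with none of the 5 lists. Ikzf2 passed it with none by r (T cell reference, r = −0.49, adjusted p = 0.143). By rho it passed with the B cell and follicle list alone (rho = −0.56, adjusted p = 0.0434). The points share a library and its size factor, and part of any such relation can come from that; its part was not tested.

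**Figure D4:**
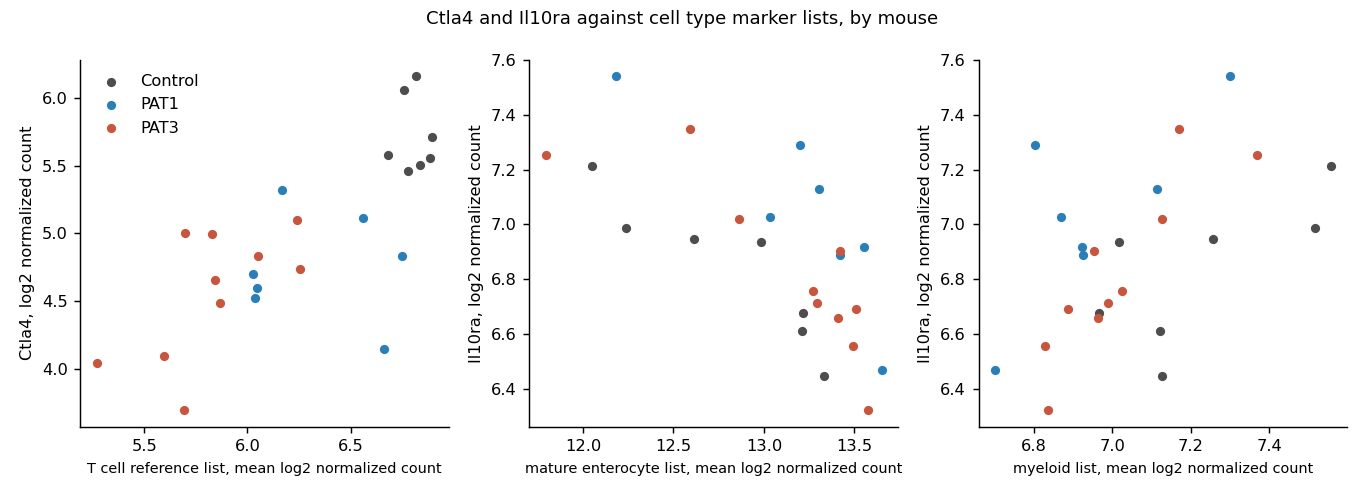
Log2 normalized count of Ctla4 against the T cell reference list (left) and of Il10ra against the mature enterocyte list (middle) and the myeloid list (right), one point per mouse, coloured by group. Over the 24 mice Il10ra falls along the enterocyte axis and rises along the myeloid axis, and Control mice stand apart in the left panel.

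Beyond the lists, the genes of the panel most like each of the 10 were found by Pearson's r over the 24 mice after subtraction of group means, as a description. For Il10ra these were Nox4 (r = 0.85, rho = 0.81) and Itgb2 (r = 0.84, rho = 0.76), for Entpd1 Mr1 (r = 0.83, rho = 0.86), and for Il2ra Lilrb3 (r = 0.79, rho = 0.79). Ikzf2 was most like Tlr4 (r = 0.62, rho = 0.56), followed by Cd44 (r = 0.62, rho = 0.47), and Ebi3 most like Ccr3 (r = 0.70, rho = 0.67). Ikzf4 was most like Tgfb3 (r = 0.72, rho = 0.71), Ctla4 most like Lair1 (r = 0.70, rho = 0.69) and Foxp3 most like Ccr9 (r = 0.76, rho = 0.74), a gut-homing chemokine receptor. Il10 was most like the liver complement gene C9 (r = 0.78, rho = 0.65), and Folr4 most like the thymic gene Psmb11 (r = 0.69, rho = 0.59), both from the list of genes of other organs. Among themselves, Il2ra and Il10ra had an r of 0.65 and Ikzf4 and Entpd1 0.61. Foxp3 had an r of −0.34 with each of Ikzf2 and Ikzf4, and of 0.45 with Ctla4.

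Partners of the 10 genes were read from fixed lists, whose median log2 fold changes stand beside 0.01 and 0.03 for all genes. Of 9 genes for CTLA-4 ligands and costimulation, 2 were called lower and 1 higher in each treated group, with list medians of −0.21 in PAT1 and −0.18 in PAT3. Over all genes, 11.2% were called lower in PAT1 and 17.9% in PAT3, and 7.31% and 13.9% higher. Re-centring and quantile normalization each left 1 of the list lower in PAT1. Tigit, an inhibitory receptor of T and NK cells, fell by 1.09 in PAT1 (adjusted p = 0.000540) and fell by 1.52 in PAT3 (adjusted p = 1.28e-06), beside the fall of Ctla4. Icosl, the ligand of ICOS, rose by 0.55 in both groups (adjusted p = 0.00326 and 0.00104), and Icos fell by 0.95 in PAT3 (adjusted p = 0.00733). Tnfrsf9 (4-1BB) fell by 0.64 in PAT1 (adjusted p = 0.0495), a call lost under re-centring (0.182) and quantile normalization (0.0550). The ligands of CTLA-4 were not called: Cd80 differed from Control by 0.05 and −0.13 and Cd86 by 0.13 and 0.00, in PAT1 and PAT3.

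Of 7 genes of IL-2 receptor signalling, 2 were called lower in PAT1 and 3 in PAT3 and none higher, with medians of −0.13 and 0.24. Of all genes, 11.2% and 17.9% were called lower. In PAT3, re-centring gave 3 of the list higher and 2 lower, and quantile normalization 2 and 2. Over all 547 genes in PAT3, re-centring gave 152 higher and 78 lower, and quantile normalization 110 and 85. Il2rb, the signalling chain that pairs with CD25, fell by 0.53 in PAT1 (adjusted p = 0.0150) and by 1.06 in PAT3 (adjusted p = 2.57e-06), with −0.53 between PAT3 and PAT1 (adjusted p = 0.0401). That last call was kept in 12 of 24 fits with 1 mouse left out and lost under quantile normalization (adjusted p = 0.0517) and by the methods' test (0.156). Jak3, the kinase bound to the common gamma chain, fell by 0.88 and 0.65 (adjusted p = 0.0153 and 0.0400), and Il2rg, that chain, fell by 0.73 in PAT3 (adjusted p = 0.00365). Il2 itself was not called, with differences of 0.46 and 0.66. Under re-centring on the median the fall of Il2rb in PAT1 (adjusted p = 0.0836) and that of Jak3 in PAT3 (adjusted p = 0.114) were no longer called.

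Of 6 genes of IL-10 receptor signalling (medians −0.18 and −0.01), 1 was called higher and 1 lower in each treated group. Il10rb, the second chain of the IL-10 receptor, rose by 0.71 in PAT1 (adjusted p = 0.00247) and by 0.39 in PAT3 (adjusted p = 0.0446, and 0.0936 after quantile normalization). Socs3, a STAT3-induced inhibitor of cytokine signalling, fell by 1.31 and 1.54 (adjusted p = 0.000203 and 1.65e-06). Stat3 was not called, at −0.43 and −0.22. Among 5 partners and receptors of EBI3-containing cytokines (medians −0.18 and −0.19), none was called in PAT1 by limma on the deposited scale, where 1 (Il27ra, adjusted p = 0.0578) had an unadjusted p under 0.05, and 2 were lower in PAT3, Il27ra by 0.85 (adjusted p = 0.000379) and Il12rb2 by 0.79 (adjusted p = 0.00727). After quantile normalization limma called Il27ra lower in PAT1 by 0.43 (adjusted p = 0.0358). Il27 and Il12a, which encode the partner subunits, were not called. Nt5e (CD73), which turns the AMP produced by CD39 into adenosine and is also made by enterocytes, rose by 1.03 in PAT1 (adjusted p = 0.00782) and by 0.91 in PAT3 (adjusted p = 0.00664).

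TGF-beta induces Foxp3 in peripheral T cells, whereas Smad5, which is on the list used here, acts mainly in the related bone morphogenetic protein pathway. Of 7 genes listed for TGF-beta signalling, 1 was called higher in PAT1 (Smad5 by 0.45, adjusted p = 0.0393) and 5 in PAT3, with none lower and medians of 0.08 and 0.48. In PAT3 these were Smad5 by 0.67 (adjusted p = 0.000776), Smad3 by 0.63 (0.00187), the receptors Tgfbr2 by 0.45 (0.00383) and Tgfbr1 by 0.39 (0.0217), and the ligand Tgfb3 by 0.54 (0.0432). Tgfb1, the ligand best known in regulatory T cells, differed by 0.04 and 0.00. Of all genes, 7.31% were called higher in PAT1 and 13.9% in PAT3. Under re-centring the counts in the list were 2 and 6, and under quantile normalization 2 and 5. Over all 547 genes, re-centring called 57 and 152 higher, and quantile normalization 48 and 110. Tgfb2 and Tgfb3 differed between PAT3 and PAT1 by 0.82 and 0.74 (each adjusted p = 0.0401), calls that each held in 11 of 24 fits with 1 mouse left out and not by the methods' test (0.157 and 0.156).

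**Figure D5:**
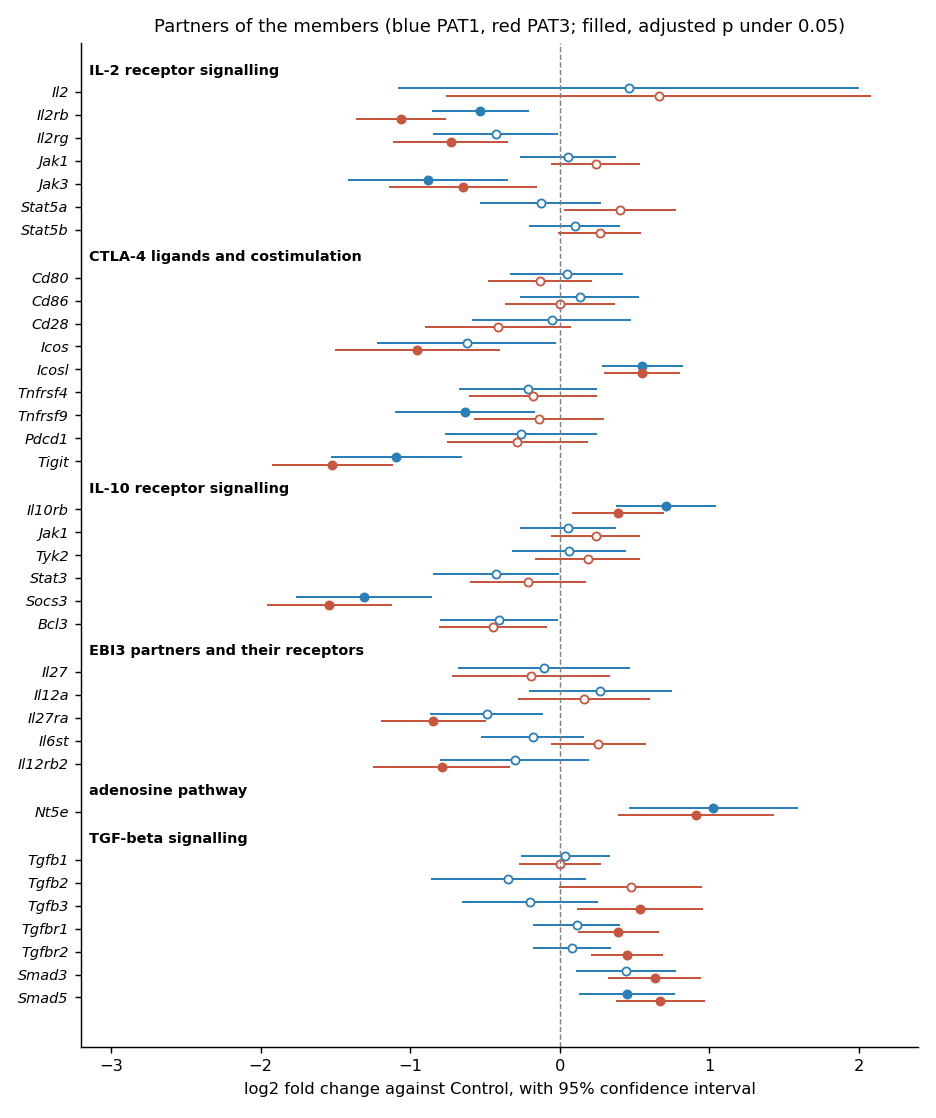
Log2 fold change against Control in PAT1 (blue) and PAT3 (red) of the partner genes in 6 lists, with 95% confidence intervals and filled points for adjusted p under 0.05. Tigit, Socs3 and Il2rb lie to the left of 0 and Icosl, Il10rb and Nt5e to the right in both groups, and 5 genes of the TGF-beta list are filled in PAT3.

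Of 12 transcription factors of the CD4 lineages, 2 were called lower in PAT1 and 5 in PAT3 and none higher, with medians of −0.05 and −0.21. Of all genes, 11.2% and 17.9% were called lower. Batf, which acts with Irf4 in effector T cells, fell by 0.65 and 0.88 (adjusted p = 0.0342 and 0.00154), and Tbx21 (T-bet), the Th1 factor, by 0.65 and 0.60 (adjusted p = 0.00422 and 0.00230). In PAT3, Ikzf3 (Aiolos), a further Ikaros family member, fell by 1.02 (adjusted p = 0.00615), Irf4 by 0.93 (0.00275) and Prdm1 (Blimp-1), a regulator of Il10, by 0.66 (0.0331). The difference of Ikzf3 between PAT3 and PAT1 was −1.05 (adjusted p = 0.0401), called in 12 of 24 fits with 1 mouse left out and not by the methods' test (0.156). Under re-centring 1 of the 12 was called higher in each group, 0 were lower in PAT1 and 3 in PAT3. Over all 547 genes, re-centring called 57 and 152 higher and 46 and 78 lower. Of 7 homing and residence genes (medians −0.05 and −0.71), 1 was lower in PAT1 and 2 in PAT3. Ccr4, a chemokine receptor of skin-homing and regulatory T cells, fell by 1.09 and 1.06 (adjusted p = 0.0124 and 0.00517), at mean log2 levels of 3.71, 2.63 and 2.65 in Control, PAT1 and PAT3 that lie near those of the genes of other organs. Ccr9 fell by 0.71 in PAT3 (adjusted p = 0.00757).

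Markers of other cell types moved in the same samples. The B cell and follicle list (15 genes measured) ran from 5.74 to 7.02 in Control, from 5.45 to 8.68 in PAT1 and from 5.13 to 6.35 in PAT3, so that some PAT1 samples held far more B cell transcripts than others. It differed from Control by 0.53 in PAT1 (adjusted p = 0.369) and fell by 0.58 in PAT3 (adjusted p = 0.0185), and it was lower in PAT3 than in PAT1, the difference being −1.11 (adjusted p = 0.0209). With that list as a covariate, the calls of Ctla4 and Ikzf2 in PAT1 and of Ctla4 and Ikzf4 in PAT3 were as before. The NK and cytotoxic list (7 genes) was lower by 0.65 in PAT1 and by 1.18 in PAT3 (adjusted p = 0.0165 and 0.000309, exact permutation tests), and the myeloid list (14 genes) by 0.27 and 0.21 (adjusted p = 0.0559 and 0.0673). The mature enterocyte list (5 genes) differed by 0.39 and 0.32 (adjusted p = 0.217 and 0.303), with members going both ways: 2 were called higher and 1 lower in each group, among them Ccl25 (1.13 and 0.81) and Ceacam1 (−1.26 and −1.05). The part of these lists in the results for single genes was not tested beyond the covariate fits given.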

How the data were processed

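Terminal ileal RNA of 24 mice was hybridized to the NanoString nCounter panel. The labels name TRIzol and an RNeasy column for extraction, and the study's methods another Qiagen kit. The authors divided the counts by DESeq2 size factors and deposited log2 values of 547 genes. Whole counts were recovered from the deposited log2 values with a tolerance of 0.01 counts, for 100% of values above 0. Totals were 171671 to 782392 counts per mouse, and a gene's counting error was set to the inverse square root of its median count. No 2 samples appeared to be the same library. A value of 0 in the table is a count of 0, none of which fell on the 10 genes.

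Groups and sex came from the labels. The study's text counts a single mouse differently between PAT1 and PAT3, and the labels were followed. Replicate numbers follow sample order and pair no animals. Nothing in the labels shows the mice to be from separate litters, so p-values measure the spread between these mice only. One limma fit (version 3.58.1, R 4.3.3; lmFit and eBayes, no covariates, no filter, no pseudocount) over all 24 mice gave an F-test and 3 contrasts. Benjamini-Hochberg adjustment ran over 547 genes with a threshold of 0.05, and intervals are 95%. The same fit was made after subtraction of the T cell reference, and with sex or its interaction with treatment. Marker lists were compared by exact permutation, and correlations were permuted with numpy 2.4.6. The fits were checked on simulated data. The methods' test, aov and TukeyHSD, was an alternative, as were other normalizations, pseudocounts, filters, covariates, each sex alone and each mouse left out. The 10 genes and all lists were chosen with earlier results of these data known. Genes named beyond the 10 were called genes of the partner lists, direct partners, and the genes most like each by r. Promoters and current symbols came from RefSeq (GRCm38.p6), and a promoter was found for 6 of the 10 genes.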

Additional observations from a re-analysis of the deposited data

Results flagged for a closer look

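Within each group of mice, a gene's highest and lowest values were compared with their neighbours by Dixon's ratio, in 30 sets of 1 gene and 1 group. Chance alone flags about 1 set in 20, and 4 were flagged. Ikzf2 was 7.99 in PAT3 replicate 4 (279 counts), where the next PAT3 mouse was 6.73. Il10 was 4.86 and Il2ra 5.68 in PAT3 replicate 7, where the next Il10 value was 3.59. That library is the second shallowest, and these values rest on 17 and 30 counts. Folr4 was 0.94 in PAT1 replicate 6 (2 counts), where the next was 3.70. The cause of these values was not tested.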

How the results depend on the processing

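Against the main counts of 2 genes called of the 10 in PAT1, 2 in PAT3 and 0 in PAT3 against PAT1, the count in PAT1 was 1 by the methods' test, with the size factor as a covariate and in males alone, 0 in females alone, and 4 with the enterocyte list as a covariate (chosen after the data were seen). Those PAT1 fits called 73, 130, 57, 23 and 118 of all 547 genes, in that order, where the main fit called 101. In PAT3 the count was 4 under re-centring on the median, which called 230 of all 547 genes. It was 0 with the T cell reference as a covariate and in females alone, which called 7 and 57 of all genes where the main fit called 174. Males alone gave 2 in PAT3, with Folr4 in place of Ikzf4, in a fit that called 122 of all genes. In PAT3 against PAT1 the count was 1 under re-centring, quantile normalization, voom, a filter on means of at least 20 and the enterocyte covariate, and 2 with sample weights, in males alone and without both shallowest PAT mice (chosen after the data were seen). Over all genes, the fits with a count of 1 called 57, 32, 47, 43 of 435 and 73, in that order. The fits with a count of 2 called 93, 129 and 77, where the main fit called 23. Leaving out 1 mouse at a time gave 1 to 3 in PAT1, 2 to 3 in PAT3 and 0 to 2 between them; PAT1 replicate 2 decided Ikzf2, and the count of 2 came without PAT1 replicate 6. Relative to T cell transcripts, the main counts of 3, 7 and 3 ranged over 3 to 5 (5 without PAT1 replicate 7), 7 to 8 and 2 to 4, and Cd3e alone gave 7 in PAT1. Ctla4 kept its direction under all 42 alternatives in both groups and was called in 40, the exceptions being females alone and the T cell covariate. Ikzf2 in PAT1 was called in 36 and Ikzf4 in PAT3 in 39, with no change of direction. The median gene of a mouse was lower than in Control by 0.14 in PAT1 and 0.19 in PAT3 on the deposited scale (−0.14 and −0.19), which re-centring adds back to each difference, and this moved the share of calls that were higher from 39.6% to 55.3% in PAT1 and from 43.7% to 66.1% in PAT3. Quantile normalization gave 56.4% in PAT3. Over all genes PAT3 against PAT1 gave 23 calls, 57 under re-centring, 93 with sample weights and 0 by the methods' test and with the size factor, the B cell list or the T cell reference as a covariate. With 1 mouse left out it ranged from 0, for 12 of the 24 mice, to 102, without PAT3 replicate 7. Leaving out PAT3 replicate 10, whose sample title lies among those of PAT1, changed no call of the 10 genes in the 3 contrasts on the deposited scale. Relative to T cell transcripts, it added Ikzf2 to the genes called in PAT3 against Control. Over all genes, leaving out that mouse gave 55 calls between PAT3 and PAT1. No paired analysis was possible because the replicate numbers follow sample order and pair no animals. Foxp3, Il10 and Folr4 fell below the filter, and depth limits them most.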
